A study of Mus musculus with 6 samples.

Results

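The 6 genes described here, Gp2, Sox8, Tnfaip2, Marcksl1, Anxa5 and Pglyrp1, are known from microfold cells of the gut and were followed in medullary thymic epithelial cells (mTEC) sorted into tuft-like and non-tuft populations. They were chosen by name, and all 6 were found among the 52636 gene rows of the count table and passed the filter on low counts. Bulk RNAseq was performed on 3 libraries of each population, from C57BL/6 mice of 6 weeks of age. Both populations were thymic epithelial cells that bound the lectin UEA1, had low MHCII and were negative for Sca1 and CD63. The labels give both as negative for CD80, and the study's text calls such cells low for it. The study's gate for tuft-like mTEC lay within cells positive for the epithelial marker EpCAM1 and negative for CD45, which marks blood cells. The tuft-like cells were positive for both CD117 and CD66a, and the non-tuft cells were negative for both, so that the non-tuft sort was defined by what it lacked. No source states whether mice were pooled for a library, so p-values measure the spread between these libraries.

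Microfold cells lie in the epithelium over lymphoid follicles of the gut, where they take up particles and bacteria from the lumen and pass them to immune cells below. They are induced by the cytokine RANKL through its receptor RANK and NF-κB, and the transcription factors Spi-B and Sox8 then drive their maturation. Cells with a microfold programme also occur among mTEC, next to tuft, keratinocyte-like and other mTEC that resemble peripheral cell types. The study compared the populations to learn what the double negative cells are and if they have traits of tuft-like mTEC, and the genes below follow another peripheral programme across the same sort.

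Depth ranged from 20097617 to 48369825 counts on genes per library, so that 3 counts, the upper limit for a gene with 0, corresponded to 0.0620 to 0.149 CPM (counts relative to library size, for counting error only). Reads assigned to no gene were between 19.7% and 61.6% of all reads, lowest in tuft-like replicate 3 and highest in tuft-like replicate 1. Among 11593 genes with at least 10 CPM on average, 61.6% had their highest tuft-like level in replicate 3 and 59.2% their lowest in replicate 1. Of 15 tuft cell genes all 15 were called higher in the tuft-like libraries (by a median of 4.23 on the log2 scale), against 1.16% of all genes tested. The tuft-like libraries thus matched their label, which only checks the labels. The study had already reported Dclk1 and Il25 as enriched in these cells, and the list was chosen with earlier results known. Of 9 genes of mature mTEC 7 were called lower, against 0.951% of all genes tested. These 9 summed to between 15250 and 18930 CPM in the non-tuft and between 2417 and 5354 CPM in the tuft-like libraries, although both sorts had low MHCII. Of 8 thymic epithelial genes 2 were called lower (Foxn1 and Krt14), and the list summed to at least 4842 CPM in every library. Of 5 erythroid genes edgeR called 0, and 4 were lower at an unadjusted p under 0.05, against 8.97% of all genes tested in either direction. All 5 did not overlap between the populations, where 16.0% of all genes tested did not. The 5 genes summed to between 236.2 and 381.4 CPM in the non-tuft and between 88.0 and 163.9 CPM in the tuft-like libraries. Their part in the results was not tested.

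Of the 6 microfold genes, 0 differed between the populations in edgeR's quasi-likelihood test at a false discovery rate (FDR) of 0.05, against 2.11% of the 32496 genes tested. That share was 5.84% among genes with at least 10 CPM. At an FDR of 0.10 the count was still 0, against 3.10% of all genes, and at an unadjusted p under 0.05 it was 1 (Gp2), against 8.97%. DESeq2 and limma voom each called 1 of the 6, again Gp2, where they called 8.25% and 2.78% of the genes they tested. The genes did not move together. Gp2 and Sox8 had higher mean levels in the tuft-like libraries, Tnfaip2 had a lower mean, and Marcksl1, Anxa5 and Pglyrp1 differed by less than 0.3 on the log2 scale. The median log2 fold change of the 6 was 0.08, against 0.02 over all genes tested. Libraries of both populations were fully separated for 1 of the 6 genes (Gp2), against 16.0% of all genes tested (7.18% higher and 8.85% lower in tuft-like libraries) and 28.2% of those with at least 10 CPM. In bulk samples, more cells of a type and more RNA per cell cannot be told apart.

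**Figure D1:**
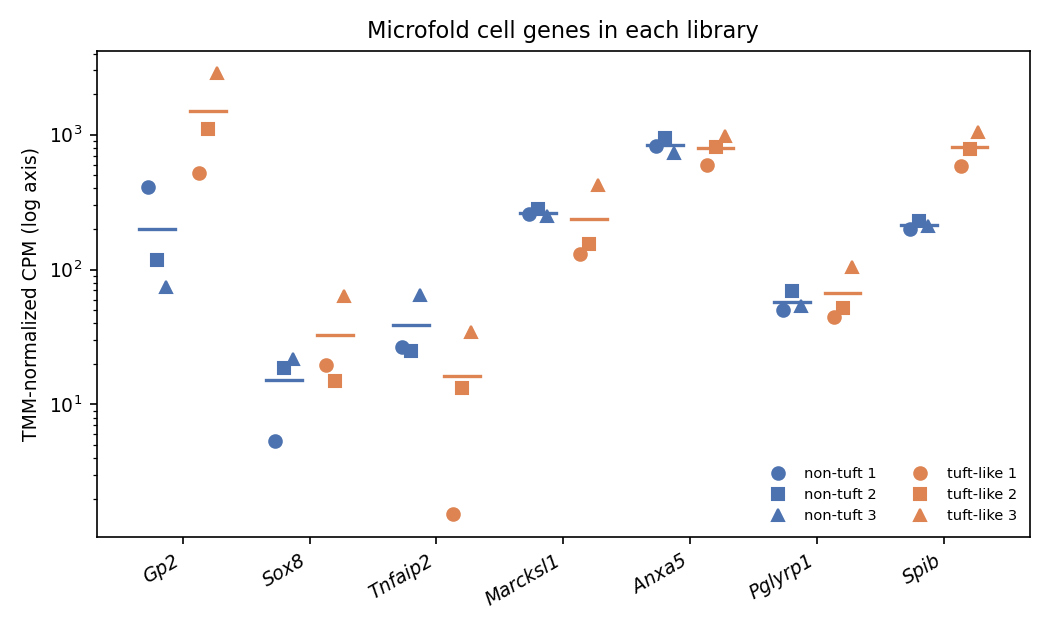
TMM-normalized CPM on a log axis for the 6 microfold genes and Spib, with 1 point for each library and a bar at the mean of each population (n = 3). The tuft-like and non-tuft points are separate for Gp2 and Spib, and overlap for the other 5 genes.

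The promoter sequences of Gp2, Spib and Tnfaip2 are shown because Gp2 and Spib were the microfold genes whose tuft-like libraries all lay above the non-tuft ones, and Tnfaip2 was the member with the largest difference in the other direction. Each is the stretch of 250 bases before the RefSeq transcription start in GRCm38.p6, written 5′ to 3′ on the strand of the gene. Capitals mark the TATA box motif TATAAA in Gp2 and the GC box GGGCGG, or its reverse complement, in Spib and Tnfaip2.
Gp2, chr7:119459273-119459522, minus strand: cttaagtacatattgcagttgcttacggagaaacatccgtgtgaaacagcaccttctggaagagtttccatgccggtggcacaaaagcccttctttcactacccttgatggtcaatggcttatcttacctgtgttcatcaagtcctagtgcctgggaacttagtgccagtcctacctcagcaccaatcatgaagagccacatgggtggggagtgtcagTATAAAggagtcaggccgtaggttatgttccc
Spib, chr7:44532072-44532321, minus strand: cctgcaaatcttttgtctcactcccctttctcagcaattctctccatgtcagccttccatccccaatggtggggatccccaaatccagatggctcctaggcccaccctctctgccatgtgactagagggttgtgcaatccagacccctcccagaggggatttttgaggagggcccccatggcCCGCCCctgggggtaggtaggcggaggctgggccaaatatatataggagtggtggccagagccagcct
Tnfaip2, chr12:111442411-111442660, plus strand: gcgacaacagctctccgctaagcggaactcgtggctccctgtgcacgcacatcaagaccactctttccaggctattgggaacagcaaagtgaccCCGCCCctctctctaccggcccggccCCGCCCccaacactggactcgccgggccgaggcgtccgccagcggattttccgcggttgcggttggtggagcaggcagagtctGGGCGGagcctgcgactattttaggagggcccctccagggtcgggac

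Of the 7 promoters searched on both strands, those of the 6 members and of Spib, the Gp2 promoter was the only one with TATAAA, which 12.4% of 32851 RefSeq promoters hold over the same length. The Gp2 promoter had a GC content of 48.4% and no GC box, against 58.0% in Spib with 1 GC box and 65.6% in Tnfaip2 with 3, and 32.7% of all promoters hold at least 1. The Sox8 promoter held 2 GC boxes and the Pglyrp1 promoter 1. The motif GAGGAA, a sequence that Spi-B can bind, was present in Marcksl1 with 1 match and Pglyrp1 with 2, and in 23.3% of all promoters. Shorter forms of this motif were not searched. The motif of the NF-κB site, reduced to its outer letters, occurred in Pglyrp1 alone of the 7, where it shares 2 bases with the GC box, and in 17.6% of all promoters. A match of letters does not show a bound site, and a window without one says nothing about the factor.

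Sox8, a transcription factor of the SoxE group that microfold cells need for maturation, was measured at 5.36, 18.7 and 21.7 CPM in non-tuft replicates 1, 2 and 3 and at 19.5, 14.9 and 63.5 CPM in the tuft-like replicates. The populations overlapped, and only tuft-like replicate 3 stood above all non-tuft libraries. Sox8 (ENSMUSG00000024176, chromosome 17 of mm10, 25565892 to 25570686) had a log2 fold change of 1.10 (95% interval -0.37 to 2.56, edgeR FDR 0.884), and 0.13 without tuft-like replicate 3. In non-tuft replicate 1 its counts per exon kb were 0.991 times the level that 99% of 1134 genes for olfactory receptors stayed below, a measure of background reads, and in the other 5 libraries they were above it. Of its 3118 exonic bases, 329 overlap a gene on the other strand, and no source used here gives the strand setting of the counting.

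The relatives of Sox8 differed in level. Sox9, which is known from epithelial progenitors, stood at 129.9, 195.2 and 183.8 CPM in the non-tuft and 312.4, 481.1 and 781.5 CPM in the tuft-like libraries. These values did not overlap, with a log2 fold change of 1.63 (95% interval 0.79 to 2.47) that missed the threshold (edgeR FDR 0.0627). Leaving out tuft-like replicate 1 brought the FDR to 0.0146 in edgeR, whereas no other omission called the gene (edgeR FDR up to 0.301). DESeq2 gave 0.000542, and 8 of the 14 alternatives called the gene. Sox10 was at 0 counts in tuft-like replicates 2 and 3 and did not pass the filter. Per exon kb, Sox9 reached 127 CPM on average in tuft-like and 41.0 in non-tuft libraries, against 10.5 and 4.90 for Sox8.

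Spib, which encodes Spi-B, was the regulator of the microfold programme that passed the test. It is not among the 6 genes and is included as the partner of Sox8. Spib stood at 199.8, 231.0 and 211.7 CPM in the non-tuft and at 591.2, 783.3 and 1051 CPM in the tuft-like libraries. The non-tuft libraries lay close together, and every tuft-like library was above them. Spib (ENSMUSG00000008193, chromosome 7, 44525993 to 44532071) rose in tuft-like mTEC with a log2 fold change of 1.92 (95% interval 1.19 to 2.64, edgeR FDR 0.0128). The call was lost without non-tuft replicate 1 (edgeR FDR 0.0955), non-tuft replicate 2 (0.112) or tuft-like replicate 2 (0.0662), while the log2 fold change stayed between 1.64 and 2.10. Spi-B is also known from B cells. Of 7 B cell genes 1 was called higher, Cd79b, against 1.16% of all genes tested. Cd79b rose from 8.42 ± 3.07 to 77.6 ± 27.3 CPM (SD, n = 3, edgeR FDR 0.00317, log2 fold change 3.20). The list summed to between 42.7 and 55.2 CPM in the non-tuft and between 86.7 and 132.9 CPM in the tuft-like libraries, and Cd79b made up 47.9, 83.5 and 101.5 CPM of the tuft-like sums. The next in abundance, Ighm, was at 27.1 ± 10.6 CPM in the non-tuft libraries against 18.8 ± 10.5 CPM (SD, n = 3, edgeR FDR 1). Ms4a1 was at 5.30, 2.02 and 9.31 CPM in the non-tuft and at 8.76, 6.90 and 0.0276 CPM in the tuft-like libraries, lowest where Spib was highest and where background was lowest. The part of B cells in the level of Spib was not tested.

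Gp2, the glycoprotein on the apical surface of mature microfold cells that binds type I fimbriae of bacteria, showed the largest difference of the 6 genes. Its levels were 412, 117 and 73.9 CPM in non-tuft replicates 1, 2 and 3 and 525, 1097 and 2877 CPM in the tuft-like replicates. Every tuft-like library lay above every non-tuft library, but non-tuft replicate 1 came near tuft-like replicate 1, and each population spread over more than 5-fold. Counts were high throughout, from 2325 to 104164, so that counting error was small beside the spread between libraries. Gp2 (ENSMUSG00000030954, chromosome 7, 119442537 to 119459285) averaged 1499 ± 1227 CPM in tuft-like mTEC, against 201 ± 184 CPM in the others (SD, n = 3). This log2 fold change of 2.90 (standard error 0.76, 95% interval 1.21 to 4.59) missed the FDR threshold in edgeR (FDR 0.104). The exact permutation p was 0.10, the smallest that 3 libraries against 3 allow (two-sided).

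Whether Gp2 passed depended on the test and on single libraries. DESeq2 (FDR 0.000878), limma voom (0.0150), edgeR without a filter (0.000232) and edgeR on genes of at least 10 CPM (0.0326) all called it. The last 2 of these called 2.36% and 13.3% of their genes. Without non-tuft replicate 1 the log2 fold change was 3.93 (edgeR FDR 0.0291), and without tuft-like replicate 1 it was 3.31 (edgeR FDR 0.0380). Without tuft-like replicate 3 it was 1.97 (edgeR FDR 0.257). Of all genes, 1.42% were called without non-tuft replicate 1 and 2.19% without tuft-like replicate 1. In the 8 alternatives that did not call Gp2 the share of all genes called was 2.41% with RLE size factors, 3.22% with library size only, 2.27% with the replicate number as a block, 1.03% and 1.50% without non-tuft replicates 2 and 3, 1.05% and 2.45% without tuft-like replicates 2 and 3, and 3.98% after background counts were subtracted. Over all 14 alternatives the FDR ranged from 0.000232 to 0.370, 6 of them called the gene, and the log2 fold change was above 0 in all 14. The largest tuft-like level was in the library with the fewest reads outside genes and the lowest in the library with the most. The non-tuft libraries had the same order. Gp2 was highest in replicate 1, with the fewest such reads (34.4%), and lowest in replicate 3, with the most (52.5%). Subtraction of background counts left the log2 fold change at 2.83 (edgeR FDR 0.0633), and the part of background in the spread of Gp2 was otherwise not tested.

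Within the tuft-like libraries Gp2 varied by 5.48-fold from the lowest to the highest, more than any of the 15 tuft cell genes, whose folds ran from 1.40 to 2.26 with a median of 1.80. Over the 11593 genes of at least 10 CPM the median fold was 1.89 in the tuft-like and 1.55 in the non-tuft libraries, where Gp2 varied by 5.58-fold. A ratio within a library does not depend on the scaling between libraries. The level of Gp2 per exon kb was 0.445, 0.110 and 0.0902 times that of Anxa5 in the non-tuft and 0.783, 1.19 and 2.60 times in the tuft-like libraries, so these ratios did not overlap. Against Spib the ratios were 2.96, 0.729 and 0.501 in the non-tuft and 1.27, 2.01 and 3.93 in the tuft-like libraries, and they did. Against Dclk1, a tuft cell marker that differed strongly between the sorts, the ratios went the other way with no overlap, at 127, 37.8 and 15.3 in the non-tuft and 3.16, 5.11 and 12.0 in the tuft-like libraries.

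Gp2 is also abundant in zymogen granules of the exocrine pancreas, and mTEC express many genes of peripheral tissues. Of 12 pancreatic acinar genes 0 were called by edgeR, against 2.11% of all genes tested. At an unadjusted p under 0.05 in edgeR 3 were higher (Prss2, Reg1 and Ctrb1), against 8.97% of all genes in either direction. Of the 12 genes 11 had a log2 fold change above 0, with a median of 0.67. Their sum was 18.8, 19.7 and 41.4 CPM in the non-tuft and 31.9, 79.3 and 151 CPM in the tuft-like libraries. In tuft-like replicate 3, which had the highest Gp2 level, Ctrb1 was at 51.5, Reg1 at 49.4, Prss2 at 15.9 and Clps at 9.80 CPM, while Cpa1, Cpb1 and Pnlip were at 0 counts. These last 3 were not above the background level of the olfactory receptor genes in any library, and tuft-like replicate 3 had the lowest background. Cpa1 was also at 0 counts in non-tuft replicates 1 and 2, and Pnlip in non-tuft replicate 1. Reg1 was the most abundant of the list in the tuft-like population, at 30.5 ± 22.6 CPM against 4.77 ± 2.25 CPM in non-tuft libraries (SD, n = 3, edgeR FDR 0.154). The part of acinar genes or cells in the level of Gp2 was not tested. Of the 6 genes with a ZP domain, Gp2 had the highest level in every library, and 0 passed the test, against 2.11% of all genes tested. Umod, its nearest relative, which is known from the kidney, stood at 11.4 ± 7.96 and 5.84 ± 5.29 CPM in tuft-like and non-tuft libraries (SD, n = 3, edgeR FDR 1).

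**Figure D2:**
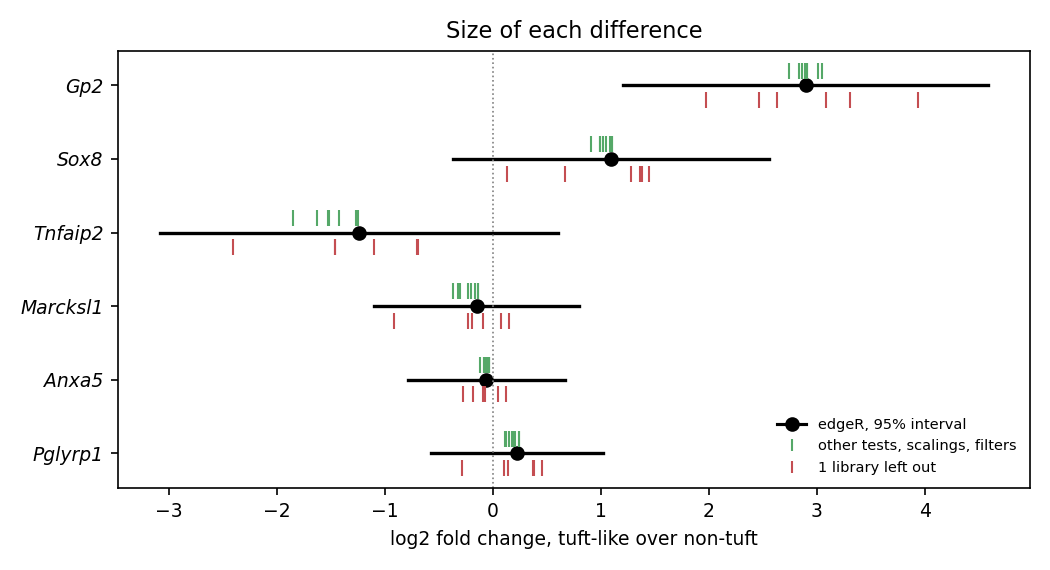
Log2 fold change of the 6 genes, tuft-like over non-tuft, from edgeR with its 95% interval (black), from other tests, scalings and filters (green) and with 1 library left out (red). The interval of Gp2, 1.21 to 4.59, lies above 0, and those of the other 5 genes include 0.

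Tnfaip2, also called M-Sec, a protein related to the exocyst that promotes thin membrane bridges between cells, had levels that went the other way. It was counted at 26.7, 24.9 and 64.6 CPM in the non-tuft and at 1.53, 13.4 and 34.2 CPM in the tuft-like libraries. Tuft-like replicates 1 and 2 lay below every non-tuft library, whereas tuft-like replicate 3 lay above 2 of them. In tuft-like replicate 1 it had 37 counts, which per exon kb was 0.112 times that same background level, so that its level there was not above background. Tnfaip2 (ENSMUSG00000021281, chromosome 12, 111442469 to 111455018) had a log2 fold change of -1.24 (95% interval -3.09 to 0.60, edgeR FDR 0.991). Leaving out tuft-like replicate 1 or non-tuft replicate 3 gave -0.70, and leaving out tuft-like replicate 3 gave -2.41. Another gene on the other strand overlaps 314 of its 4984 exonic bases.

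The gene for the related Exoc3l4 lies upstream of Tnfaip2 on the same chromosome (111417017 to 111431678). It stood at 70.7 ± 11.1 CPM in non-tuft and 25.7 ± 14.4 CPM in tuft-like libraries (SD, n = 3), with no overlap and a log2 fold change of -1.46 (edgeR FDR 0.122). Exoc3, a core subunit of the exocyst, was at 87.7 ± 25.3 and 105.5 ± 23.0 CPM (SD, n = 3, edgeR FDR 1). Of the 5 genes of this family, 0 passed the test, against 2.11% of all genes tested. Tnfaip2 is known from endothelial and myeloid cells too. Of 8 endothelial genes 0 were called, against 2.11% of all genes tested. Their log2 fold change was above 0 for 7 and below 0 for 1, with a median of 1.07. At an unadjusted p under 0.05 in edgeR 1 was higher, against 8.97% of all genes in either direction. They summed to between 162.2 and 210.6 CPM in the non-tuft and between 125.1 and 366.7 CPM in the tuft-like libraries. The highest sum was in tuft-like replicate 1, where Tnfaip2 was lowest and where background was highest. Of 12 macrophage and dendritic cell genes 1 was called lower, where 0.951% of all genes tested were. This was the lysosomal gene Cd68 (39.3 ± 8.47 against 3.99 ± 0.428 CPM, SD, n = 3, edgeR FDR 0.00280). The list summed to between 228.3 and 364.7 CPM in the non-tuft and between 138.1 and 206.8 CPM in the tuft-like libraries. The most abundant gene of each list was Vwf, at 161.9 ± 35.4 CPM in non-tuft and 120.7 ± 31.7 CPM in tuft-like libraries, and Lyz2, at 222.7 ± 82.2 and 145.3 ± 29.6 CPM (SD, n = 3, edgeR FDR 1 and 0.787). The part of endothelial or myeloid cells in the levels of Tnfaip2 was not tested.

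Marcksl1, which binds actin and calmodulin at the plasma membrane, was even across the non-tuft libraries (258, 281 and 249 CPM) and uneven across the tuft-like ones (130, 156 and 424 CPM). The tuft-like values lay on both sides of the non-tuft range, a 3.27-fold span against one of 1.13-fold. Marcksl1 (ENSMUSG00000047945, chromosome 4, 129513581 to 129515985) had a log2 fold change of -0.15 (95% interval -1.10 to 0.80, edgeR FDR 1), which was -0.92 without tuft-like replicate 3 and 0.15 without tuft-like replicate 1. Its relative Marcks was at 100.5 ± 32.2 CPM in non-tuft and 72.6 ± 23.6 CPM in tuft-like libraries (SD, n = 3, edgeR FDR 1).

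Anxa5, a calcium-dependent protein that binds phosphatidylserine, was abundant in all 6 libraries and differed least. It was at 823, 947 and 729 CPM in the non-tuft and at 596, 816 and 985 CPM in the tuft-like libraries, which overlapped widely. Anxa5 (ENSMUSG00000027712, chromosome 3, 36448923 to 36475894) had a log2 fold change of -0.06 with a 95% interval from -0.79 to 0.67 (edgeR FDR 1). Differences within that range in either direction were therefore not resolved. Other annexins passed the test in both directions. Of 12 annexin genes 3 rose and 1 fell, where 1.16% and 0.951% of all genes tested did. Among genes with at least 10 CPM, 5.84% were called in either direction.

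Anxa4 rose from 636.6 ± 122.1 CPM in non-tuft to 2452 ± 642 CPM in the tuft-like population (SD, n = 3, edgeR FDR 0.0278, log2 fold change 1.95). Anxa2, a membrane scaffold at sites of exocytosis, rose from 309.4 ± 52.4 to 922.9 ± 203.9 CPM (SD, n = 3, edgeR FDR 0.0352, log2 fold change 1.58). Anxa6 rose from 145.0 ± 32.7 to 511.5 ± 224.6 CPM (SD, n = 3, edgeR FDR 0.0390, log2 fold change 1.82). These 3 calls were each lost when tuft-like replicate 2 or any 1 of the non-tuft libraries was left out, and that of Anxa6 also without tuft-like replicate 3, with edgeR FDR up to 0.274 for Anxa2, 0.231 for Anxa4 and 0.194 for Anxa6. Anxa8, an annexin of stratified epithelia, fell from 193.6 ± 32.2 to 25.6 ± 10.7 CPM (SD, n = 3, edgeR FDR 0.00185, log2 fold change -2.92) and kept its call in all 14 alternatives. Per exon kb, Anxa5 had the highest mean of the 12 annexins in the non-tuft libraries (469 CPM), whereas in the tuft-like libraries Anxa4 (528 CPM) stood beside Anxa5 (450 CPM) with overlapping values.

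**Figure D3:**
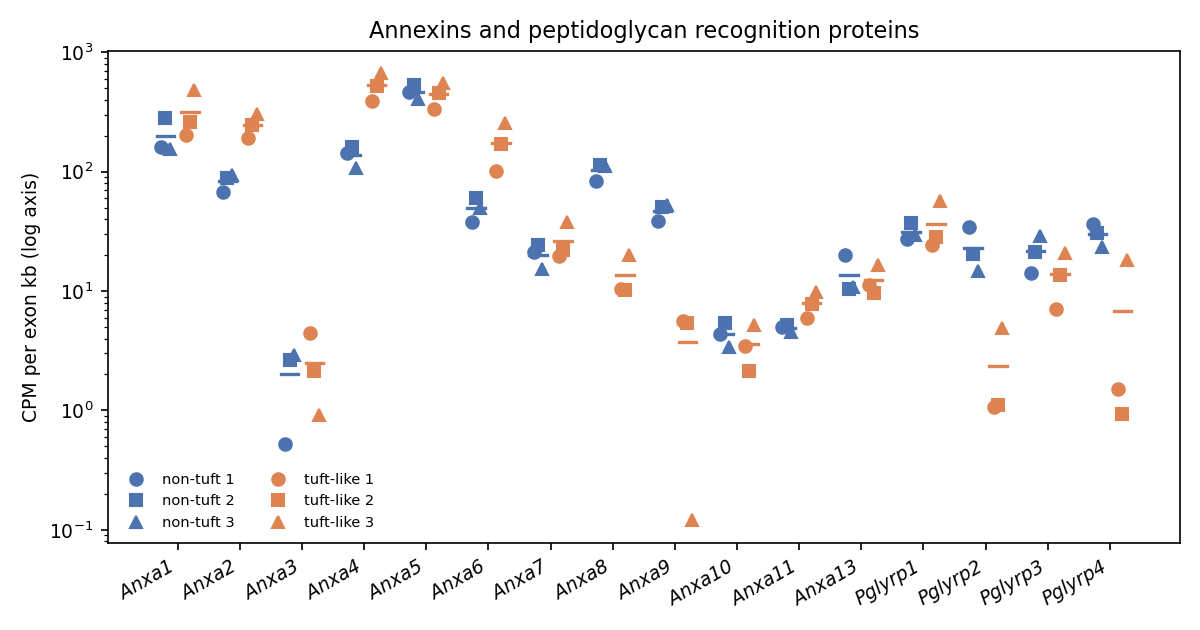
CPM per exon kb on a log axis for the 12 annexins and the 4 peptidoglycan recognition proteins, with 1 point for each library and a bar at the mean of each population (n = 3). The points of Anxa5 and Pglyrp1 overlap between the populations, those of Anxa2, Anxa4 and Anxa6 are higher in tuft-like libraries, and those of Anxa8 and Pglyrp2 are lower.

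Pglyrp1, a secreted protein that binds bacterial peptidoglycan, was at 50.0, 68.9 and 54.1 CPM in the non-tuft and at 44.6, 52.4 and 105 CPM in the tuft-like libraries. The populations overlapped, with tuft-like replicate 3 above all other libraries. Pglyrp1 (ENSMUSG00000030413, chromosome 7, 18871331 to 18890459) had a log2 fold change of 0.22 (95% interval -0.58 to 1.02, edgeR FDR 1), which turned to -0.29 without tuft-like replicate 3. Of the 4 genes of its family, Pglyrp2, an amidase that cleaves peptidoglycan, fell from 74.9 ± 32.3 to 7.58 ± 7.07 CPM in the tuft-like population (SD, n = 3, edgeR FDR 0.0263, log2 fold change -3.30). Its call was lost without non-tuft replicate 1 (edgeR FDR 0.0545) or tuft-like replicate 2 (0.0666), and 468 of its 3239 exonic bases overlap a gene on the other strand. Pglyrp4 stood at 85.5, 73.2 and 54.9 CPM in non-tuft and 3.55, 2.19 and 42.8 CPM in tuft-like libraries (edgeR FDR 0.495, log2 fold change -2.14). Pglyrp3 was at 23.9 ± 8.26 and 15.4 ± 7.68 CPM (SD, n = 3, edgeR FDR 1).

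Pglyrp1 is stored in neutrophil granules. Of 12 neutrophil genes 0 were called by edgeR, against 2.11% of all genes tested, and the median log2 fold change was -1.33. At an unadjusted p under 0.05 in edgeR 3 were lower, against 8.97% of all genes in either direction. Their sum was between 132.6 and 188.4 CPM in the non-tuft and between 66.8 and 218.2 CPM in the tuft-like libraries. The most abundant of them were Ltf, at 18.9, 89.2 and 9.31 CPM in the non-tuft and 34.6, 182.6 and 162 CPM in the tuft-like libraries, and S100a9, at 36.4 ± 5.84 and 9.10 ± 5.66 CPM (SD, n = 3, edgeR FDR 0.137). In tuft-like replicate 3, where Pglyrp1 was highest, S100a9 was at 13.8 CPM and Elane, Cxcr2 and Ly6g were at 0 counts, as each of these 3 was in at least 1 non-tuft library. That library also had the lowest background. The part of neutrophils in the level of Pglyrp1 was not tested.

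Levels per exon length put the 6 genes in a different order in each population. In the non-tuft libraries the mean CPM per exon kb was 469 for Anxa5, 164 for Marcksl1, 101 for Gp2, 31.4 for Pglyrp1, 7.77 for Tnfaip2 and 4.90 for Sox8. Marcksl1 and Gp2 overlapped between libraries, as did Tnfaip2 and Sox8, while Anxa5 and Marcksl1 did not, and Gp2 and Pglyrp1 came close in replicate 3 (37.0 and 29.5) and overlapped across libraries. In the tuft-like libraries the means were 750 for Gp2, 450 for Anxa5, 147 for Marcksl1, 36.6 for Pglyrp1, 10.5 for Sox8 and 3.28 for Tnfaip2. There Gp2 and Anxa5 overlapped, and so did Sox8 and Tnfaip2, and the other neighbours did not. Gp2 thus ranked above Anxa5 in tuft-like replicates 2 and 3 and below it in the other 4 libraries.

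A list of 15 further genes reported for microfold cells gave values in both directions. EdgeR's quasi-likelihood test called Spib higher and H2-M2 lower, the median log2 fold change was -0.77, and 11 of 15 were below 0. These 2 calls compare with 2.11% of all genes tested and 5.84% of those with at least 10 CPM. Of the 15 genes 6 did not overlap, where 16.0% of all genes and 28.2% of those with at least 10 CPM did not. H2-M2, a non-classical MHC class I gene, was at 217.5, 155.9 and 131.5 CPM in the non-tuft and 33.4, 21.4 and 28.8 CPM in the tuft-like libraries. It fell by 2.60 on the log2 scale (edgeR FDR 0.00195) and kept its call in all 14 alternatives. A further 4 genes did not overlap between populations and missed the threshold. These were Gjb2, a connexin (177.4 ± 12.6 against 62.4 ± 32.8 CPM, SD, n = 3, edgeR FDR 0.0970), Clu, a secreted chaperone (1216 ± 46.8 against 463.9 ± 201.1 CPM, SD, n = 3, edgeR FDR 0.117), Tnfrsf11a, which encodes RANK, and Atoh8, a restrainer of microfold maturation.

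Atoh8 had 20.4, 23.3 and 16.3 CPM in the non-tuft and 0.827, 2.49 and 10.9 CPM in the tuft-like libraries (edgeR FDR 0.455, log2 fold change -2.07), and was called without tuft-like replicate 3 (edgeR FDR 0.0237). The same omission also called Gjb2 (edgeR FDR 0.0230) and Clu (edgeR FDR 0.0103), which were called in 8 and 7 of the 14 alternatives, Gjb2 also with the replicate number as a block (edgeR FDR 0.0486). Of the chemokines that microfold cells secrete, Ccl20 was at 88.4, 60.1 and 46.9 CPM in non-tuft and 5.95, 79.2 and 56.6 CPM in tuft-like libraries, and Ccl9 was at 33.0 ± 12.1 and 19.1 ± 9.79 CPM (SD, n = 3). Neither passed the test (edgeR FDR 1 and 0.853). Esrrg, a nuclear receptor linked to Sox8 in microfold cells, was at 30.03 ± 8.24 and 33.7 ± 23.0 CPM (SD, n = 3, edgeR FDR 1).

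**Figure D4:**
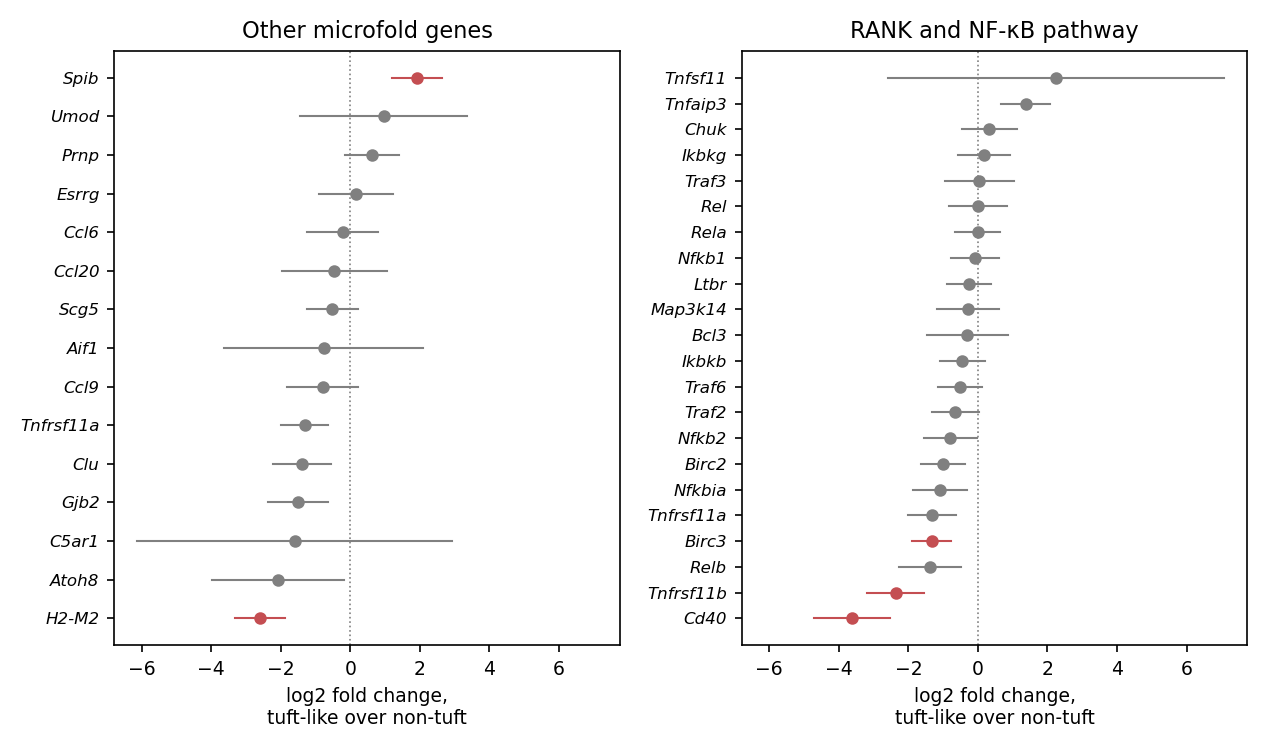
Log2 fold change with its 95% interval from edgeR for 15 further microfold genes (left) and 22 genes of the RANK and NF-κB pathway (right), tuft-like over non-tuft, with genes called at FDR 0.05 in red. On the left Spib is the called gene above 0 and H2-M2 the one below, and on the right the 3 called genes lie below 0.

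RANK signalling, which induces microfold cells in the gut and matures mTEC in the thymus, was followed with a list of 22 genes. Of these 0 were called higher and 3 lower by edgeR in tuft-like mTEC (Cd40, Tnfrsf11b and Birc3), where 1.16% of all genes tested were called higher and 0.951% lower. The share called in either direction was 5.84% among genes with at least 10 CPM. At an unadjusted p under 0.05 there were 1 higher and 8 lower, against 8.97% of all genes in either direction, and the median log2 fold change was -0.38. RANK itself (Tnfrsf11a) was at 60.2, 84.6 and 71.3 CPM in the non-tuft and 21.0, 33.1 and 32.6 CPM in the tuft-like libraries. These did not overlap, and the log2 fold change of -1.32 missed the threshold (edgeR FDR 0.0640), while DESeq2 gave an FDR of 0.00130. Tnfrsf11a was called in 5 of the 14 alternatives. With 1 library left out it was called in 0 fits (edgeR FDR 0.0625 to 0.385). The ligand gene Tnfsf11 reached at most 4.97 CPM and was at 0 counts in tuft-like replicate 3.

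Tnfrsf11b, which encodes the decoy receptor osteoprotegerin, fell from 90.6 ± 35.7 to 17.6 ± 3.11 CPM (SD, n = 3, edgeR FDR 0.00814, log2 fold change -2.37). Cd40, another receptor of the TNF family on mature mTEC, fell from 104.5 ± 32.5 to 8.53 ± 5.61 CPM (SD, n = 3, edgeR FDR 0.00352, log2 fold change -3.61), and both kept their calls in all 14 alternatives. Birc3, an inhibitor of the non-canonical pathway and itself an NF-κB target, fell from 192.4 ± 14.9 to 76.4 ± 6.07 CPM (SD, n = 3, edgeR FDR 0.0237, log2 fold change -1.33). Its call was lost without non-tuft replicate 1 (edgeR FDR 0.106), non-tuft replicate 2 (0.148) or tuft-like replicate 2 (0.164). Nfkbia, the most abundant gene of the list, stood at 801.2 ± 76.5 and 377.4 ± 144.6 CPM in non-tuft and tuft-like libraries (SD, n = 3, edgeR FDR 0.217). The non-canonical subunit gene Relb stood at 153.3 ± 14.1 and 58.7 ± 35.5 CPM (SD, n = 3, edgeR FDR 0.149). Tnfaip3, which encodes the inhibitor A20, was higher in all 3 tuft-like libraries, at 162.5, 267.1 and 295.9 CPM against 112.2, 74.5 and 93.3 CPM, and missed the threshold (log2 fold change 1.37, edgeR FDR 0.0605).

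The genes most alike in pattern were taken as the 3 with the highest Pearson's r to each member in log2 CPM over the 6 libraries, among 11592 other genes of at least 10 CPM. For Gp2 these were Rac2, Llgl2 and 4933439C10Rik (r between 0.993 and 0.995), for Sox8 they were Lpin1, Zfp141 and Pak2, and for Tnfaip2 they were Hspb8, Akr1b3 and Hbegf. For Marcksl1 they were Rps23, Prkcd and Ap4s1, for Anxa5 they were Prom2, Actr1a and Wdr83os, and for Pglyrp1 they were Snrpa1, Got1 and Ypel3. With 6 libraries that share their scaling, between 30 and 192 genes reached an r above 0.95 with a given member, so these names describe the libraries. No member was among the nearest 3 genes of another.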

How the data were processed

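Bulk RNAseq of 3 tuft-like and 3 non-tuft libraries used a SMARTer ultra-low input kit. Per the study's methods and the submitters' processing notes, reads were trimmed with Trimmomatic 0.36, aligned to mm10 with STAR 2.7.3a and assigned to genes with HTSeq (intersection-nonempty), and the authors deposited unnormalized counts per gene. The strand setting and annotation release are not given in the sources used here. Gene rows were named with GENCODE M21, which matched 99.72% of them (the rest hold 0.0164% of counts), and rows that name no gene (no feature, ambiguous, not unique) were left out of library sizes. Groups followed the sample titles.

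Low counts were filtered with filterByExpr (at least 10 counts, total of 15) and libraries scaled by TMM before testing with edgeR 4.0.16 (R 4.3.3) by the quasi-likelihood F-test, with Benjamini-Hochberg adjustment over all 32496 genes and an FDR threshold of 0.05. Each standard error was taken as the size of the log2 fold change over the root of its F statistic. DESeq2 1.42.0 and limma 3.58.1 served as alternatives. The fitting was checked on counts simulated with known changes. Levels are TMM-normalized CPM, divided per exon kb by the union of exons, and likeness of pattern used log2(CPM + 0.5). The alternatives were other scalings, tests and filters, subtraction of background counts, the replicate number as a block and each library left out. The 6 genes and all lists were chosen with earlier results of these data known. Genes named outside the 6 were those called or not overlapping in the microfold list, those called and up to 4 of the most abundant others in each further list, and the 3 most alike in pattern. Cpa1, Cpb1, Pnlip, Elane, Cxcr2, Ly6g, Ccl9, Ccl20, Esrrg, Tnfsf11, Relb, Anxa9 and Anxa11 were added after their values were seen.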

Additional observations from a re-analysis of the deposited data

How the results depend on the processing

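The log2 fold changes of Gp2, Sox8 and Tnfaip2 kept their sign in all 14 alternatives. That of Gp2, 2.90, gained the call with DESeq2 (2.91), limma voom (3.04), no filter on low counts (2.89) and a filter of at least 10 CPM (2.86), so that 1 member was called there in place of 0. With each library left out in turn, it ran from 1.97 to 3.93, and between 0 and 1 members were called. Sox8 ran from 0.13 to 1.45, Tnfaip2 from -2.41 to -0.70, Marcksl1 from -0.92 to 0.15, Anxa5 from -0.28 to 0.12 and Pglyrp1 from -0.29 to 0.45. The sign turned for Marcksl1 without tuft-like replicate 1 (0.15) or 2 (0.08), for Anxa5 without non-tuft replicate 2 (0.04) or tuft-like replicate 1 (0.12), and for Pglyrp1 without tuft-like replicate 3 (-0.29). The number of all genes called, 687, became 1045 with library size only, 2013 with DESeq2, 1127 with no filter, 1547 with at least 10 CPM and 1055 after subtraction of background counts, and ran from 376 to 922 with 1 library left out. The cause was not tested. At an FDR of 0.10 the calls became 4 of the 15 further microfold genes, 5 of the RANK and NF-κB list, 1 of the SoxE factors and 1 of the erythroid genes, in place of 2, 3, 0 and 0. Of all genes tested, 3.10% were called at that FDR.

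No source states whether libraries with the same replicate number came from the same mice. Deviations of same-numbered libraries from the means of their populations correlated at -0.117, -0.0462 and -0.290. These values cannot decide it, since library quality ran in opposite orders. Reads assigned to no gene rose from 34.4% in replicate 1 to 52.5% in replicate 3 of non-tuft libraries. In tuft-like libraries they fell from 61.6% to 19.7%. With the replicate number as a block 737 genes and 0 members were called, at log2 fold changes of 3.02 for Gp2 (edgeR FDR 0.192), -1.86 for Tnfaip2 (0.275) and 1.88 for Spib (0.0793), and Birc3, Anxa2, Anxa4 and Anxa6 also lost their calls. Gjb2 gained its call. The members' own biological coefficients of variation ran from 0.275 to 0.702. Their lowest counts in a library were 37 for Tnfaip2 and 170 for Sox8, and the effect of depth was not tested.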
